A study of Dreissena polymorpha with 11 samples.

Results

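The 9 sequences described here are probe targets of a zebra mussel (*Dreissena polymorpha*) microarray whose signal lay lower in gill than in every digestive gland and gonad sample. They carry identifiers that begin with EY, the largest of the identifier series on the array, and they were picked from the measured values themselves. Of 3541 sequences on the array 2864 were EY sequences, and 2701 of these had at least 2 probes and could be evaluated. For each of them the 2 probes brightest on average were taken, and a gap was computed for each probe as the lowest digestive gland or gonad array minus the higher gill array on a log2 scale. A member had a gap of 1 or more in both probes, a processed signal above 50 on the 5 digestive gland and gonad arrays, and a larval level not below that of gill. 10 sequences met the first condition and 9 met all 3 conditions. The difference between gill and the digestive gland and gonads is therefore what chose the members, and it is given as a description, with no test read from it.

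The arrays were Agilent 1-colour arrays hybridised with Cy3-labelled RNA from untreated mussels. The 11 samples were 2 of larvae at 24 h after fertilisation, 2 of gill, 2 of digestive gland, 2 of male gonad, 1 of female gonad and 2 half-body samples. Larval samples started from 200 ng of total RNA and the adult ones from 500 ng. Replicate 1 of gill, digestive gland and half-body is labelled female in one field and replicate 2 male, whereas another field calls the gill and digestive gland samples female throughout. Whether a sample was 1 animal or a pool is not stated, and a p-value below therefore reflects no more than how these samples varied, which may be technical. No strain or genotype is given, and the files pair no gene name with any sequence. The labelled tissues could therefore not be checked against marker genes, and no sequence on the array, members included, matched the RefSeq gene table of the species.

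In bivalves the gill is a ciliated epithelium that moves water, sorts food particles and exchanges gases. The digestive gland takes up food particles and digests them inside its cells, and the gonads of separate males and females are made up largely of developing gametes. A sample of the body holds several of these tissues together with muscle, mantle and foot.

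The array of larvae replicate 1 was close to blank, with 132 probes well above background and a highest signal of 78.8, and it was left out of every value below. The other 10 arrays had 4429 to 5705 of 13654 probes well above background. Gill 1 was the single array on slide 3. The first arrays of half-body, digestive gland, larvae and male gonad shared slide 1, and the 6 remaining arrays shared slide 2. Each array was placed on a common scale by subtracting its median log2 signal over 1326 EY probes that were above 1000 on all 10 arrays, so a value of 0 is the level of a typical bright EY probe.

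One conflict between the deposited sources touched the gill values. The scanner file of gill 1 correlated most with that of gill 2 among the other arrays (r = 0.959 across probes), whereas the gill 1 column of the authors' deposited table correlated with its own scanner file at only r = 0.579. The deposited columns of the other arrays except larvae 1 correlated with their scanner files at r = 0.984 or more. In the authors' deposited table, all 8 members with a value had their gill 2 value below all 5 digestive gland and gonad values. The gill 1 value of the authors' deposited table was below all 5 for 3 members, EY434179, EY433866 and EY434967, and above all 5 for 3 others, EY433672, EY434176 and EY433852. For EY433672 the authors' deposited table gave 14.54 for gill 1, 2.34 for gill 2 and 12.51 as the lowest of the 5. The values below come from the scanner files, in which both gill arrays were low, and differences that rest on gill are also given with gill 2 as the only gill array.

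EY433672 had the widest gap of the 9 members, 11.14 and 9.52 in its 2 probes. Its relative log2 signal was -10.81 and -10.64 in gill, 1.66 and 0.94 in digestive gland, 0.32 and 0.03 in male gonad and -0.10 in female gonad. It was 0.79 and -0.81 in half-body and -3.60 in larvae 2. In processed signal, probe CUST_3943_PI415929191 read 18.4 and 6.1 on the gill arrays and 88260.1 and 92935.9 on the digestive gland arrays. Neither probe was well above background on either gill array. With the 3 tissue groups weighted equally, the mean of the digestive gland and gonads was at least 2330-fold higher than gill, as a bound. A bound of this kind sets each dim array at its own signal or, where that is higher, at the lowest signal among probes well above background there. That lowest signal was 6.07 on gill 1 and 3.48 on gill 2, below the readings of both probes, so this bound equals the ratio as measured. Signals this dim are uncertain, and a probe can read above that lowest signal without being well above background, as both probes did here. The wording "at least" here and below is thus no firm limit, and the true ratio can be lower. Over gill 2 alone the digestive gland and gonads were at least 2200-fold higher. In whole-tissue RNA, fewer cells of a type and less RNA per cell cannot be told apart.

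EY433866 had gaps of 8.45 and 7.25. Its values were -10.86 and -9.63 in gill, 0.01 and 0.54 in digestive gland, -1.48 and -0.13 in male gonad and -1.78 in female gonad. Half-body read -0.26 and -1.57, and larvae 2 read -2.92. Digestive gland was the highest tissue on both of its arrays, and male gonad 1 and female gonad lay lowest among the 5 arrays. Both probes were well above background on gill 2 and neither was on gill 1. The digestive gland and gonads were 465-fold above gill 2, and 713-fold above the mean of both gill arrays as measured.

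EY434176 had gaps of 7.70 and 6.14, with -12.36 and -11.28 in gill against -2.76 and -2.94 in digestive gland. Male gonad read -3.92 and -3.61, female gonad -4.36, half-body -4.19 and -5.40, and larvae 2 -5.19. The sequence was not well above background in gill with either probe, and the digestive gland and gonads were at least 287-fold higher, or at least 197-fold over gill 2 alone.

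In 3 further members the larval array was also far below the digestive gland and gonads, in EY433853 by 1 of its 2 chosen probes only. EY434179 read -12.07 and -12.30 in gill and -9.02 in larvae 2, against -1.97 and -1.47 in digestive gland. Male gonad stood at -2.79 and -2.40, female gonad at -2.64 and half-body at -1.86 and -2.13. The 7 adult arrays other than gill thus lay close together, and both gill arrays and the larval array lay far beneath them. The digestive gland and gonads were at least 888-fold above gill, at least 916-fold above gill 2 alone and at least 104-fold above larvae 2, where 1 of the 2 probes was not well above background.

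The 2 probes of EY434179 disagreed on digestive gland. CUST_2314_PI415929191 had a processed signal of 1059.7 on digestive gland 1 and 11573.1 on digestive gland 2, whereas CUST_2315_PI415929191 had 33651.6 and 20570.5. On the relative scale digestive gland 1 minus digestive gland 2 was -2.57 for the first and 1.59 for the second, so the mean of the probes hides opposite differences between the 2 arrays.

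EY433852 and EY433853 carry consecutive identifiers, and both had their highest value on half-body 1. EY433852 read -11.27 and -10.66 in gill, -10.19 in larvae 2, -2.82 and -2.54 in digestive gland, -4.14 and -3.81 in male gonad and -4.07 in female gonad. In half-body it read -1.04 and -1.97, above all 5 digestive gland and gonad arrays on both. Larvae 2 exceeded the gill mean by 0.78 for EY433852, the smallest such difference of the members, and the digestive gland and gonads were at least 162-fold above gill and at least 126-fold above gill 2 alone.

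EY433853 read -10.46 and -10.22 in gill, -0.63 and 0.40 in digestive gland, -0.73 and -0.50 in male gonad and -0.94 in female gonad. Its half-body values were 1.23 and 0.11. Only half-body 1 exceeded all 5 digestive gland and gonad arrays. The larval spot of CUST_502_PI415929191 was marked by the scanner software as uneven. Its signal was 8746.6, against 16653.0 for the same probe on digestive gland 1, before scaling between arrays. The spot was left out, so EY433853 has no larval value from 2 probes, and a far lower larval level is not shown by this probe. The other chosen probe of EY433853, CUST_338_PI415929188, read 126.8 on larvae 2, which was 4.42 above its gill mean on the relative scale. The larval condition rested on CUST_338_PI415929188. The digestive gland and gonads were at least 883-fold above gill and at least 812-fold above gill 2 alone. In gill, CUST_338_PI415929188 was not well above background on either array and CUST_502_PI415929191 was detected on both.

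EY434967 and EY435649 had smaller gaps, 5.27 and 4.10 for the first and 5.63 and 3.17 for the second. EY434967 read -12.04 and -11.92 in gill, -5.14 and -4.67 in digestive gland, -6.87 and -4.44 in male gonad and -7.24 in female gonad. The half-body arrays read -6.94 and -8.92, and larvae 2 read -6.60. Male gonad 1 minus male gonad 2 was -2.43, the widest difference between male gonad arrays among the members. Both chosen probes showed it, with processed signals of 126.6 and 1309.5 for CUST_2272_PI415929188 and 421.5 and 2843.7 for CUST_3402_PI415929191 on male gonad 1 and 2. Male gonad 2 was also the array with the most probes well above background, 5705, and the part of this in the difference was not tested.

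EY435649 read -12.36 and -11.61 in gill, -4.67 and -4.61 in digestive gland, -6.53 and -7.21 in male gonad and -5.54 in female gonad. The half-body arrays read -5.54 and -7.57, and larvae 2 read -6.51. Among the 5 digestive gland and gonad arrays digestive gland was highest, female gonad came next and male gonad was lowest. The digestive gland and gonads were at least 66.2-fold above gill in EY434967 and at least 77.6-fold in EY435649, and over gill 2 alone at least 63.5-fold and at least 59.0-fold. In both sequences the larval value lay within the range of the 5 digestive gland and gonad arrays.

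EY434160 was the weakest member and differed from the others in that both probes were well above background on every one of the 10 arrays. It read -7.62 and -7.20 in gill, -5.61 and -5.83 in digestive gland, -5.16 and -5.40 in male gonad and -6.04 in female gonad. The half-body arrays read -4.96 and -4.67, and larvae 2 read -5.08. The digestive gland and gonads were 3.31-fold above gill and 2.85-fold above gill 2 alone, and the half-body and larval values lay above all 5 of those arrays.

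**Figure D1:**
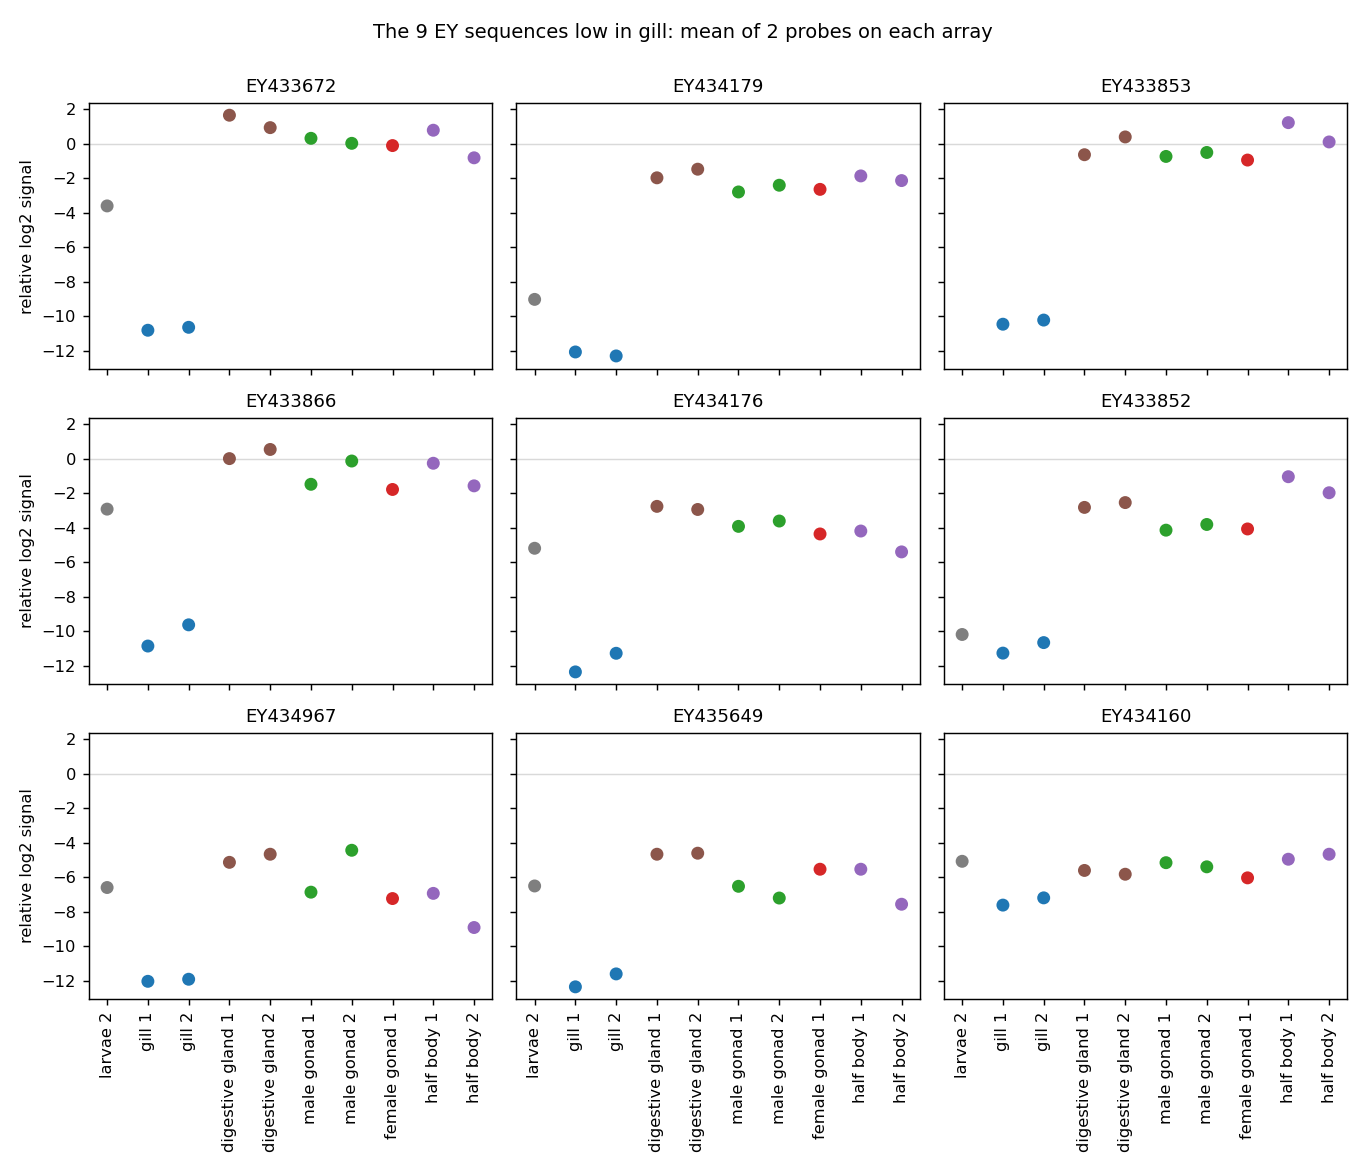
Relative log2 signal (vertical axis; 0 is the median of bright EY probes on the array) of the 9 members on each of the 10 arrays (horizontal axis), 1 point an array, coloured by tissue. The gill points of 8 members lie at or under -9.63, and EY434160 alone has gill values of -7.62 and -7.20; EY433853 has no larval point.

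Over the 2701 evaluated EY sequences the mean gap of the 2 probes had a median of -1.86 and a 99th percentile of 0.23, and 67 sequences had a mean gap above 0. The mean gaps of the members ran from 10.33 in EY433672 to 4.40 in EY435649, followed by 1.15 in EY434160. Just outside the threshold, among EY sequences that met the other 2 conditions, were EY434057, with a smaller gap of 0.92 and a mean gap of 1.14, EY436552 with 0.66 and 0.83, and EY436986 with 0.65 and 0.76. EY436976 had a gap above 1 in both probes and a mean gap of 1.26, but its signal did not exceed 50 on all 5 arrays. EY434324, with a smaller gap of 0.80 and a mean gap of 0.96, and EY433962, with 0.77 and 2.15, failed the signal limit as well and are named here after their values were seen. EY434160 alone among the members lay close to the limit. In the limma fit of gill minus digestive gland and gonads 1.85% of 1676 sequences passed the threshold as lower, 1.97% as higher and 3.82% in either direction. The rule used this contrast, so the count of 9 of 9 members as lower is no test; it was 6 with gill 2 as the only gill array.

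**Figure D2:**
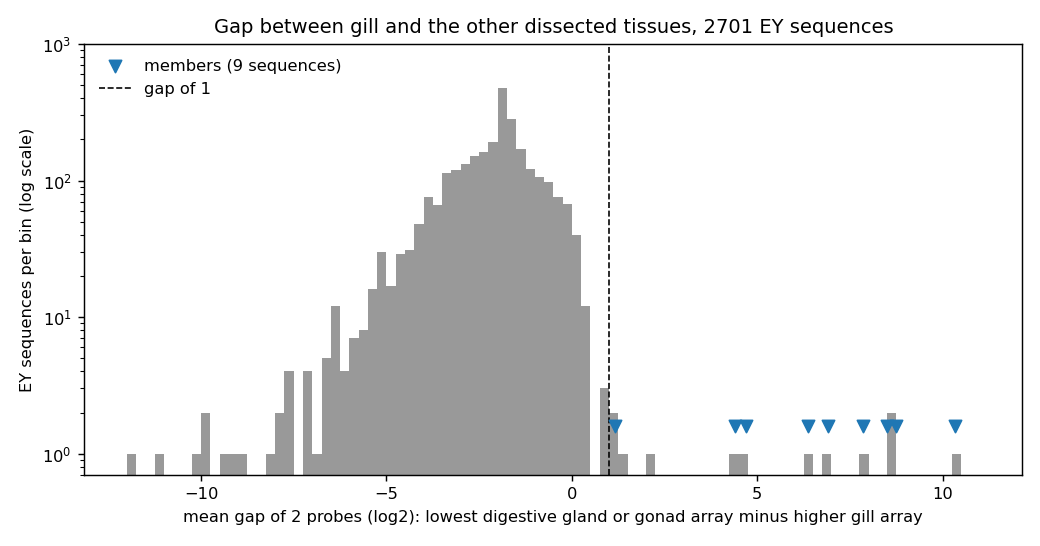
Number of EY sequences (vertical axis, log scale) by mean gap of the 2 probes in bins of 0.25 (horizontal axis, log2), for all 2701 evaluated EY sequences. Triangles mark the 9 members, 8 of which lie at 4.40 or above, and the dashed line is the gap of 1; the median of all sequences is -1.86.

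The members had 36 probes in all, 18 of them used. Of the 18 used probes 12 were well above background on no gill array, 3 on 1 and 3 on both, while all 18 were well above background on the 7 adult arrays other than gill. On larvae 2 the count was 16. Of the 18 probes not used, 5 were not well above background on any of the 10 arrays and 5 were on 5 or more of them. Probes that detect nothing beside a bright probe of the same sequence were common on the array. Of 1056 EY sequences with at least 2 probes and 1 of these detected on all 10 arrays, 533 (50.5%) had another probe detected on none. Among the unused probes 7 had a gap above 0 and the rest did not. Some of the rest were well above background on gill 1, at low signals. CUST_503_PI415929191 of EY433853 was well above background on gill 1 only, with a signal of 145.1 there, 2.9 on gill 2 and a gap of -6.27. CUST_2632_PI415929188 of EY433672 also read highest on gill 1, with 56.5 there, 4.4 on gill 2 and a gap of -3.79.

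**Figure D3:**
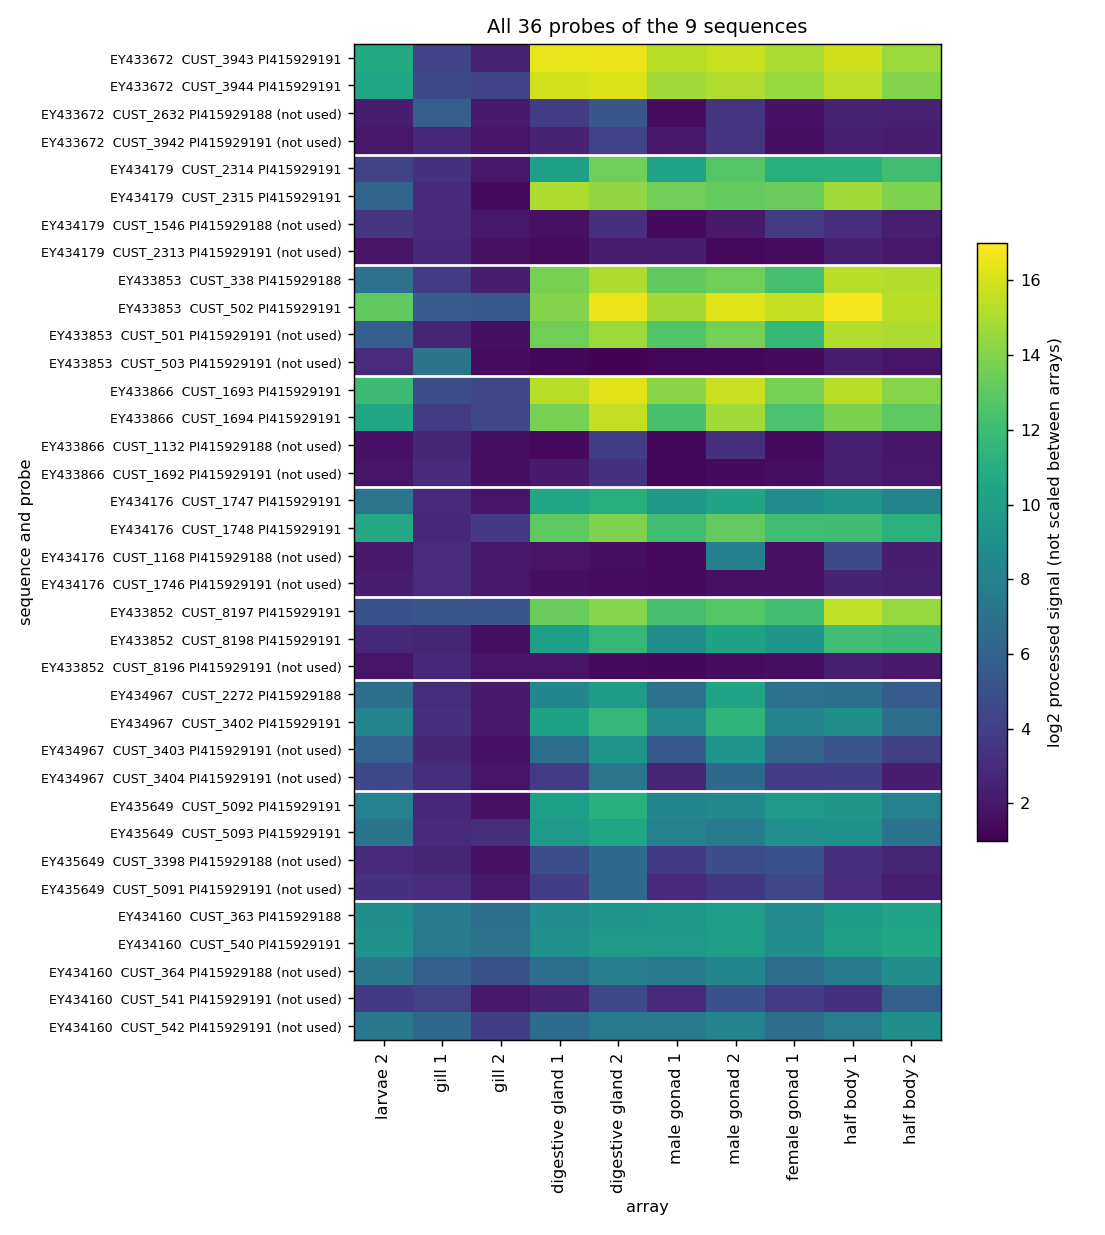
Log2 processed signal (colour, not scaled between arrays) of each of the 36 probes of the 9 sequences (rows) on the 10 arrays (columns). The used probes of 8 sequences are dark on the 2 gill arrays and brighter on the 7 other adult arrays, those of EY434160 differ less, and 5 unused probes are not well above background on any array.

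Digestive gland and gonad lie on the same side of the membership rule. The rule used the lowest of their 5 arrays and a signal limit on each, and so bounds how low any of them can be, but it did not use the order of the tissues among them. In 6 of the 9 members both digestive gland arrays lay above all 3 gonad arrays: EY433672, EY434179, EY433866, EY434176, EY433852 and EY435649. The same arrangement was found in 93 of 1680 sequences tested (5.54%) and in 6.01% of EY sequences tested. Digestive gland minus the mean of the 2 gonad groups had a median of 1.26 over the members, against -0.02 over all sequences tested. The middle of the EY sequences tested ran from a 25th percentile of -0.28 to a 75th of 0.17, with the 95th percentile at 0.95, and 6 members lay above that. Over all sequences tested, AM and AJ sequences included, the 95th percentile was 1.82 and no member reached it, the highest, EY433866, ranking 205 of 1676.

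Sequence by sequence this difference did not pass the test. The estimates were 1.56 ± 0.70 (SE) for EY433866, 1.56 ± 0.69 for EY435649, 1.54 ± 0.93 for EY434967 and 1.34 ± 0.43 for EY433852. They were 1.26 ± 0.57 for EY433672, 1.21 ± 0.54 for EY434176, 0.90 ± 0.34 for EY434179, 0.66 ± 0.51 for EY433853 and -0.06 ± 0.32 for EY434160. In the limma model with Benjamini-Hochberg adjustment over all 1676 sequences with an estimate, every member had an adjusted p of 0.997. The background for this comparison was 0% called, 0 of 1676 sequences, with 31 sequences at an unadjusted p below 0.05. Of the members, EY434179 and EY433852 were at that unadjusted level by limma. This fit took no pairs, although same-numbered digestive gland and male gonad arrays shared a slide. Their deviations from the group mean correlated at r = 0.80. With slide as a block 0 of 1676 sequences were called by limma, with 63 sequences and 2 members at an unadjusted p below 0.05.

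The median over the members was above 0 within each slide. On slide 1, digestive gland 1 exceeded male gonad 1 in 8 of 9 members, with a median of 1.31 and a range from -0.45 to 1.86, against a median of 0.25 over all sequences tested. On slide 2, digestive gland 2 exceeded male gonad 2 in 7 of 9, with a median of 0.90 (range -0.43 to 2.60) against -0.10. Digestive gland 2 exceeded female gonad in all 9, by 0.21 to 2.57 with a median of 1.34, against 0.02 over all tested. EY434160 was the member below 0 in both comparisons with male gonad. In 7 of the 9 members both used probes gave a higher digestive gland value. In EY433853 the probes disagreed, with 1.57 for CUST_338_PI415929188 and -0.26 for CUST_502_PI415929191. With the median over all probes of a sequence, undetected ones included, digestive gland minus gonads was -0.05 in EY434179 and -0.05 in EY434176.

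Digestive gland minus male gonad alone called 0 of 1680 sequences (0%) and none of the members by limma, with 41 sequences and 2 members at an unadjusted p below 0.05. The largest member estimate was 2.23 ± 0.74 (SE) in EY435649, with an adjusted p of 0.999.

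Male gonad minus female gonad, 2 groups on the same side of the rule, called 0 of 1676 sequences (0%) and none of the members by limma, with 80 sequences and 0 members at an unadjusted p below 0.05. The median over the members was 0.32, against 0.03 over all sequences tested. The 3 largest differences went both ways. EY434967 had 1.59 ± 1.22 (SE), which rested on male gonad 2, EY433866 had 0.97 ± 0.92, and EY435649 had -1.33 ± 0.90, all with an adjusted p of 0.949. Female gonad had a single array, which the model assumes to vary like the other groups.

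The half-body arrays entered the choice of probes and the scaling but not the gap or the signal limit, whereas the gill arrays set the gap. Both half-body arrays were above both gill arrays in all 9 members. Half-body minus gill was 11.01 in EY433853, 10.72 in EY433672, 10.19 in EY434179, 9.46 in EY433852, 9.34 in EY433866 and 7.02 in EY434176. It was 5.43 in EY435649, 4.05 in EY434967 and 2.60 in EY434160. The median over the members was 9.34, against -0.20 over all sequences tested. In limma 8 of the 9 members, all but EY434967, passed the threshold as higher in half-body, where 1.85% of sequences tested were called higher, 1.13% lower and 2.98% in either direction. Since the gill values were low by choice, this count is a description and no test. With slide as a block the count was 3, where 11 of 1680 sequences were called, all as higher. With gill 2 alone half-body minus gill ranged from 2.38 in EY434160 to 10.89 in EY433853, and on slide 2 half-body 2 exceeded gill 2 in 9 of 9 members by 2.53 to 10.33. In the authors' deposited table, with its differing gill 1 column, none of 8 was called, as was none of 1517 sequences (0%).

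Compared with the digestive gland and gonads, half-body lay on both sides. Half-body minus the mean of the 3 tissue groups was 2.07 ± 0.39 (SE) in EY433852, 1.23 ± 0.47 in EY433853, 0.87 ± 0.29 in EY434160 and 0.32 ± 0.31 in EY434179. It was -0.14 ± 0.64 in EY433866, -0.47 ± 0.52 in EY433672, -0.88 ± 0.63 in EY435649, -1.14 ± 0.49 in EY434176 and -2.0 ± 0.84 in EY434967. None of the members was called by limma, as was none of 1676 sequences (0%), with 3 members and 119 sequences at an unadjusted p below 0.05. The smallest adjusted p of a member was 0.588, in EY433852.

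The 2 half-body arrays themselves differed in one direction across the members. Half-body 1 lay above half-body 2 in 8 of 9 members, with a median difference of 1.21, whereas 39.4% of all sequences tested and 42.6% of EY sequences tested had half-body 1 above half-body 2, with medians of -0.22 and -0.11. The differences were 2.03 in EY435649, 1.98 in EY434967, 1.59 in EY433672, 1.31 in EY433866, 1.21 in EY434176, 1.12 in EY433853, 0.93 in EY433852 and 0.27 in EY434179. In EY434160 it was -0.29. Half-body 1 is labelled female and lay on slide 1, and half-body 2 is labelled male and lay on slide 2, so sex, slide and individual sample cannot be told apart. Between the digestive gland arrays, which lay on the same pair of slides, replicate 1 was higher in 3 members, with differences from -1.03 to 0.72.

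**Figure D4:**
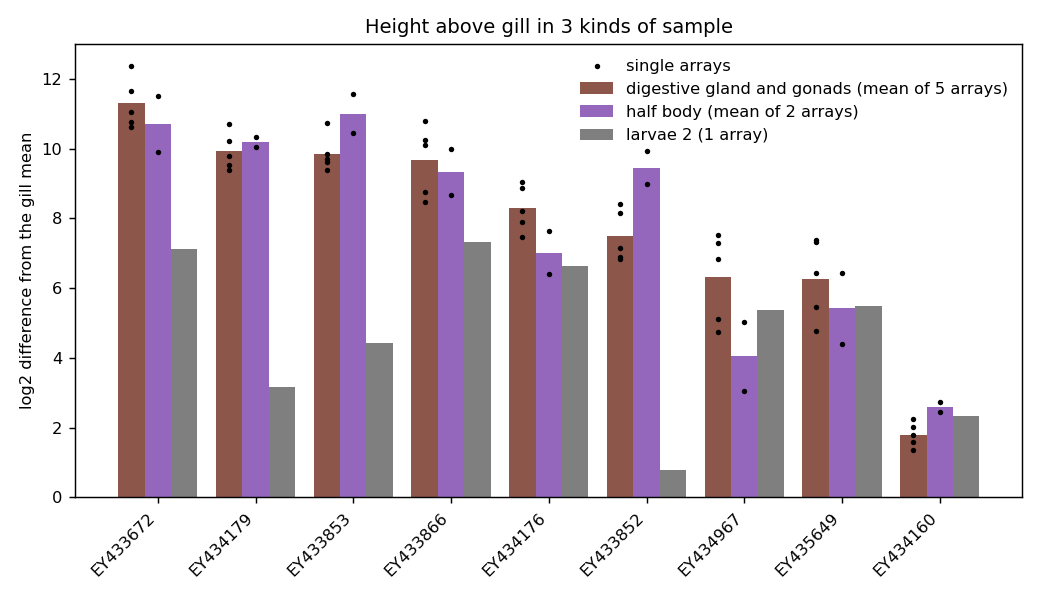
Log2 difference from the gill mean (vertical axis, starting at 0) for each of the 9 members, as the mean of the 5 digestive gland and gonad arrays, the mean of the 2 half-body arrays and the single array of larvae 2; dots are single arrays. EY433852 stands at 0.78 in larvae 2 and 9.46 in half-body, and the larval bar of EY433853 is from 1 probe.

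Larvae 2 exceeded the gill mean in every member with a value, which the rule required of it at the level of the 2-probe mean. Larvae 2 minus gill was 7.33 in EY433866, 7.12 in EY433672, 6.64 in EY434176, 5.48 in EY435649, 5.38 in EY434967, 3.16 in EY434179, 2.33 in EY434160 and 0.78 in EY433852. In limma 5 of 8 members passed the threshold as higher, where 1.44% of 1666 sequences were called higher, 1.26% lower and 2.70% in either direction, and since the rule used both sides the count is no test. With slide as a block the count was 0, where 5 of 1666 sequences were called. In the authors' deposited table it was 0 as well, but 0 of 1517 sequences were called there, so this does not set the members apart. Over gill 2 alone larvae 2 was higher by 0.48 in EY433852 to 7.04 in EY433672.

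Relative to the 5 digestive gland and gonad arrays the larval level divided the members. Larvae 2 lay below all 5 in 6 members and within or above their range in EY434967, EY435649 and EY434160. Larvae 2 minus the mean of the 5 was -6.77 in EY434179, -6.71 in EY433852, -5.72 in EY433853 by 1 probe, -4.17 in EY433672, -2.35 in EY433866 and -1.67 in EY434176. It was -0.93 in EY434967, -0.80 in EY435649 and 0.53 in EY434160. A single larval array stands behind each of these values, and it started from less RNA than the adult arrays.

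**Figure D5:**
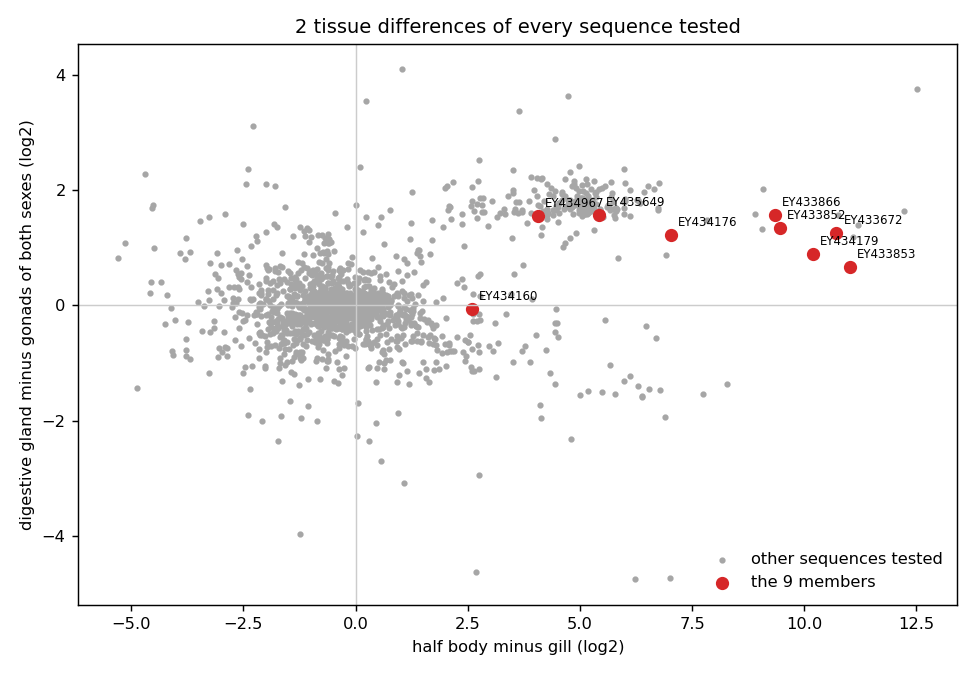
Half-body minus gill (horizontal axis, log2) against digestive gland minus gonads of both sexes (vertical axis, log2) for every sequence tested, each a grey point, with the 9 members in red and named. The members lie between 2.60 and 11.01 on the horizontal axis, and 8 of them lie between 0.66 and 1.56 on the vertical axis, with EY434160 at -0.06; many sequences that are not members lie in the same region.

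Across all 10 arrays the profiles of the members resembled one another, with a median Pearson r of 0.92 over their 36 pairs (0.66 to 0.99), which the shared low gill values fix in large part. Over the 8 arrays without gill the median r was 0.44, and the pairs ranged from -0.67 to 0.96. These correlations are over arrays that share slides and scaling and are a description.

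The sequences outside the 9 members whose profile was most like the members' median profile carried identifiers of other series. The rule had already taken the EY sequences with the widest gaps as members, so this was largely fixed by the rule. AM230114 had r = 0.993 over the 10 arrays, EF194204 0.984, AJ517744 0.983 and AJ517593 0.982. Their digestive gland minus gonads was 1.19, 1.64, 1.33 and 1.40 in that order, against a median of 1.26 over the members. That difference was thus not particular to the members, although likeness was taken over arrays that include digestive gland and gonads. AM230114 had a mean of -9.42 in gill and 2.05 over the digestive gland and gonads, with the lowest of those 5 arrays 10.52 above the higher gill array. By the gap of the 2-probe mean, 8 of 1198 EY sequences tested (0.67%) reached a gap of 4, against 7 of 109 AJ sequences (6.42%), 5 of 339 AM sequences (1.47%) and 1 of the 34 others. These 8 were among 21 such sequences of the 1680 tested. At a gap of 1 the order of the series differed, with 13 EY sequences (1.09%), 12 AJ sequences (11.01%) and 107 AM sequences (31.56%).

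The EY identifiers run from 433617 to 437044, and 7 of the 9 members lay among the lowest 716 of the 2864 identifiers, all but EY434967 and EY435649. Only EY433852 and EY433853 were neighbours. The EY sequences next in number to the members, apart from those 2, had mean gaps from -2.27 to -0.60, within the range of ordinary EY sequences.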

How the data were processed

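RNA of each sample was measured on 1-colour Agilent arrays and extracted with Agilent Feature Extraction 10.5.1.1 (protocol GE1_105_Dec08), per the file headers. The values used were the processed signal intensity per spot, which per the file headers is background-subtracted by the scanner software, and the detection flag beside it. The authors' deposited table holds log2 values for the same arrays; no source used here gives its normalization, and it served as an alternative. Its scale is log2 by comparison with the scanner signals, and its gill 1 and larvae 1 columns did not match their scanner files.

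Control spots and spots flagged as outliers were left out, spots of a probe were averaged, and log2 signals were scaled as described above. A sequence was the mean of its 2 brightest probes over 10 arrays. The test needed both probes well above background throughout at least 1 of 6 groups, which left 1680 of 3541 sequences and all 9 members. Group means were compared by lmFit and eBayes (limma 3.58.1, R 4.3.3), and a call is an adjusted p below 0.05. The fit was tested on simulated data. The normexp alternative (offset 50) used median in place of mean spot signals, since the files hold no mean signal. Members, lists and tests were chosen with earlier results of these data known. Named sequences are the members, those nearest the limit and those most like the members' median profile. Marker lists could not be applied, because the files pair no sequence with a gene name. The number of arrays limits the precision.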

Additional observations from a re-analysis of the deposited data

How the results depend on the processing

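Under 25 other settings (24 where 1 could not be fitted) no member was called in the 3 comparisons within the digestive gland and gonads or in half-body minus digestive gland and gonads. Those settings called 0 to 1 of all sequences in each of these comparisons. The exception was testing each probe on its own, which called 31 of 6078 probes in the last and no probe in the first 3. Counts that involve gill were less stable; unless a sentence below says otherwise, the cause was not tested. For half-body minus gill (8 members called), the count was 0 with the authors' deposited table, 3 with slide as a block, 4 with the median over all probes, 3 with all 11 arrays and 6 to 8 leaving out single arrays. For larvae minus gill (5), it was 1 with the 75th percentile over all probes, 0 with normexp, the authors' deposited table, slide as a block or the median over all probes, 3 with no filter, with the filter on at least 1 array or with all 11 arrays, and 0 to 5 leaving out single arrays: 0 without gill 1 or gill 2, 2 without either digestive gland array and 3 without any 1 of the male gonad or half-body arrays. For gill minus digestive gland and gonads (9), it was 1 with the authors' deposited table, 5 with slide as a block, 3 with all 11 arrays and 6 to 9 leaving out single arrays. The nearly blank larvae 1 array enters only with all 11 arrays. With the replicate block the counts were 6, 3 and 8, and 0 in the other comparisons. Deviations from the group mean correlated between same-numbered samples at r = 0.02 and 0.03 for gill with digestive gland and with male gonad. Digestive gland and male gonad, sharing slides, had 0.80 but were left unpaired.

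Over all sequences the calls ran from 0 to 286 for half-body minus gill (50 as reported), 0 to 441 for larvae minus gill (45) and 3 to 230 for gill minus digestive gland and gonads (64). Half-body minus gill and larvae minus gill each called 0 of 1517 sequences in the authors' deposited table. A count of 0 members there is that of the whole array. The rule gave 9 to 14 members leaving out single arrays, 14 of them without gill 2, 6 with normexp, which lost EY434160, EY434967 and EY435649, and 8 with the 75th percentile over all probes or quantile normalization, which lost EY434160.

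Some single differences changed sign. Digestive gland minus gonads, 0.90 in EY434179 and 1.21 in EY434176 as reported, became -0.05 in both with the median over all probes, and ran from -0.44 to 0.05 in EY434160 leaving out single arrays, the latter without digestive gland 2. Half-body minus digestive gland and gonads ran from -1.27 to 0.33 in EY433672, from -0.80 to 0.52 in EY433866 and from -1.89 to 0.14 in EY435649 leaving out single arrays, lowest without half-body 1 and highest without half-body 2. It became -0.03 in EY434179 with the median over all probes, and in EY433866 0.21 with the replicate block and 0.09 without male gonad 2. Digestive gland minus male gonad became -0.97 in EY434176 with the median over all probes, -0.46 in EY434967 without male gonad 1 and -0.02 in EY433853 without digestive gland 2. Male minus female gonad went below 0 in at least 1 setting in EY434179 (lowest -0.78), EY433852 (-0.38), EY433672 (-0.16) and EY433853 (-0.06). Larvae minus gill became -4.50 in EY433852 with the authors' deposited table. Dim gill signals, at or near background, limit the 8 members other than EY434160. The setting that kept flagged spots was added after seeing the data.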
